A study of Mus musculus with 4 samples.

Results

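Calcrl, Ramp1, Ramp2, Ramp3, Adm and Adrb1 encode the adrenomedullin system and the beta-1 adrenergic receptor. These 6 genes, of 31017 gene symbols counted, were followed in 4 single-cell RNA libraries of sorted vessel progenitor cells from C57BL/6 mice. They were chosen by their measured levels and shares of cells in these same libraries, so all values of theirs below are descriptions. The groups were the P1 library labelled lung, the P1 library labelled fat, lung P2 and fat P2, with 1 library each. All cells were sorted as Tie2+ and as lacking the blood cell markers CD45 and Ter119. P1 cells were gated as PDGFRa-, CD31+, CD105high and Sca1low, and P2 cells as PDGFRa+, CD31-, CD105low and Sca1high. Sex, age and number of animals are not given in the sources used here, nor whether animals were pooled. With 1 library a group there is no replicate check, no test was possible between groups, and every interval given covers counting error alone.

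Calcrl encodes a G protein-coupled receptor that reaches the cell surface and takes on its ligand preference only together with a receptor activity-modifying protein, the product of a Ramp gene. With Ramp2 or Ramp3 it forms the adrenomedullin receptors AM1 and AM2, and with Ramp1 the receptor of calcitonin gene-related peptide. Adm encodes adrenomedullin, a secreted peptide; in mice the ligand, Calcrl and Ramp2 are each needed for blood and lymphatic vessels to form normally. Adrb1 encodes the beta-1 adrenergic receptor for noradrenaline and adrenaline. It and the adrenomedullin receptors both act largely through the stimulatory G protein and cyclic AMP.

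In GENCODE vM21 on GRCm38, Calcrl lies on the minus strand of chromosome 2 at chr2:84330626-84425411. The co-receptor genes, all on the plus strand, are Ramp1 at chr1:91179822-91225196, Ramp2 at chr11:101246028-101259546 and Ramp3 at chr11:6658521-6677475. Adm is a short gene at chr7:110627661-110629820, and Adrb1 lies at chr19:56722199-56733113, both on the plus strand. An exon of Ramp2 overlaps an exon of Vps25 on the same strand, and how reads from the shared bases were assigned is not given in the sources used here, so Ramp2 counts carry that uncertainty. Adm overlaps the antisense gene Gm28863, but no exons of the pair overlap.

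The bases upstream of the RefSeq start on GRCm38.p6 are shown for the receptor gene Calcrl, for Adrb1, which ran with it across clusters, and for the ligand gene Adm, which ran against them; bases in an annotated exon were left out. The Adm window is chr7:110627407-110627656, the Adrb1 window chr19:56721867-56722116, both on the plus strand, and the Calcrl window chr2:84425412-84425516 on the minus strand. Capitals mark matches, on either strand, to GGGCGG (GC box), TGACG (cAMP response core) or TATAA (TATA motif).
Adm: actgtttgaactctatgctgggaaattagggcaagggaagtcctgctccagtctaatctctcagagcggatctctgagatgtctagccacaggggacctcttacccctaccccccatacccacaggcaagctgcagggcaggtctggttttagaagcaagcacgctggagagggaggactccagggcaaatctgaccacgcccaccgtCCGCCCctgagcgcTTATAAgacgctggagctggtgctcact
Adrb1: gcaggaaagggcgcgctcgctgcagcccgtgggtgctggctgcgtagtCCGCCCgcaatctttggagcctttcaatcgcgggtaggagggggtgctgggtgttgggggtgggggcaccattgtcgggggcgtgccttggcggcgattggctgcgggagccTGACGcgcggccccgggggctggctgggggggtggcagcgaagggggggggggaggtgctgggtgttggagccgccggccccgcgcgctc
Calcrl: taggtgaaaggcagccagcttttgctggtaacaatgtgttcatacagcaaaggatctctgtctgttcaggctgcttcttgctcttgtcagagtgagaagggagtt
CAGGAAG (an ETS motif) and ACGTG (the hypoxia response core) were searched too and had no match in these windows. Adm held a GC box beginning 42 bases before the start, on the minus strand, and TATAA 27 bases before it on the plus strand, overlapping a match 28 bases before it on the minus strand. Adrb1 held a GC box 202 bases before the start on the minus strand and TGACG 90 bases before it on the plus strand. Of 32817 mouse promoters searched over the same 250 bases, 32.7% held GGGCGG, 22.8% TATAA, 17.7% TGACG, 16.6% ACGTG and 10.8% CAGGAAG. The 105 bases of Calcrl end 146 bases before the RefSeq start, since the bases nearer the start lie in an annotated exon, and were searched in place of the whole window. In them none of the 5 motifs was found, where over the same positions 11.1% of promoters held GGGCGG, 11.3% TATAA, 5.6% TGACG, 6.35% ACGTG and 3.94% CAGGAAG. These are matches of letters, not shown binding sites.

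Barcodes with at least 1000 UMIs, 500 genes and at most 10% mitochondrial UMIs were kept, which left 652 in the P1 library labelled lung, 1948 in that labelled fat, 1436 in lung P2 and 7898 in fat P2, with median UMIs of 1561, 2964, 2150 and 5151.5. Levels are CPM of summed UMIs, that is a gene's UMIs relative to the library total; 0 UMIs allow up to 2.68, 0.461, 0.773 and 0.0688 CPM in the same order, which is 3 counts per library. Endothelial markers were high in both P1 libraries, with Pecam1 at 1222.9 and 1756.6 CPM, against 88.1 CPM in lung P2 and 2.38 CPM in fat P2. Pdgfra, a P2 gate gene, was at 14.3 and 9.22 CPM in the P1 libraries labelled lung and fat, against 1752.1 and 447.1 CPM in lung P2 and fat P2. The tissue labels of P1 went against tissue markers. Sftpc, of alveolar epithelium, was at 0 CPM in the P1 library labelled lung and 738.4 CPM in that labelled fat, against 3824.0 CPM in lung P2 and 0.138 CPM in fat P2. Foxf1, of lung endothelium and mesenchyme, was at 3.58 CPM in the P1 library labelled lung and 715.9 CPM in that labelled fat, while Fabp4, of fat capillaries and adipocytes, was at 12379.3 and 94.2 CPM. P1 values are therefore given by label, and P1 over P2 also with the P1 libraries exchanged. Across barcodes of the P1 library labelled lung, the variance of a gene was a median of 1.018 times that of binomial draws from 1 pool, against 1.208, 1.236 and 1.172 times in the P1 library labelled fat, lung P2 and fat P2. Its values are thus values of barcodes, not shown to be those of single cells. The 7 erythroid markers summed to 5815.1 CPM there and to 223 CPM in the P1 library labelled fat, against 267.5 CPM in lung P2 and 25.3 CPM in fat P2. Of the kept barcodes, at most 1 was shared by any pair of libraries.

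Receptor and co-receptor RNA was most abundant in the P1 library labelled fat. Calcrl stood at 105.5 CPM (95% interval 87.3 to 126.3; 118 UMIs) in the P1 library labelled lung and at 3074.5 CPM (3032.1 to 3117.4; 20016 UMIs) in that labelled fat, against 138.9 CPM (127.4 to 151.2) in lung P2 and 104 CPM (101 to 107.1) in fat P2. It was the gene of rank 17 by UMIs in the P1 library labelled fat, and its levels in the other 3 libraries lay within a narrow band far below. In order, the P1 library labelled fat was highest, lung P2 next, and the intervals of the P1 library labelled lung and fat P2 overlapped.

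Ramp2, the co-receptor of the AM1 receptor, stood at 936.9 CPM (881 to 995.3; 1048 UMIs) in the P1 library labelled lung and at 3213.9 CPM (3170.5 to 3257.7; 20923 UMIs) in that labelled fat, against 117 CPM (106.5 to 128.3) in lung P2 and 264.4 CPM (259.6 to 269.2) in fat P2. Both P1 libraries lay above both P2 libraries, with no overlap of intervals among the 4. Ramp2 was the gene of rank 13 in the P1 library labelled fat. It was also the main Ramp gene in every library, with 94.2% and 99.3% of the UMIs of the 3 Ramp genes in the P1 libraries labelled lung and fat, against 91.9% in lung P2 and 93.2% in fat P2.

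The UMIs of Calcrl per UMI of Ramp2 differed between libraries: 0.113 in the P1 library labelled lung and 0.957 in that labelled fat, against 1.19 in lung P2 and 0.393 in fat P2. UMIs of the 3' assay are not scaled by transcript length, but capture of the pair is the same kind of measure in each library, so this ratio is used here only between libraries and clusters.

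Ramp3, the co-receptor of the AM2 receptor, was a P1 gene at low level. It stood at 53.6 CPM (40.9 to 69.0; 60 UMIs) in the P1 library labelled lung and 19.4 CPM (16.1 to 23.0; 126 UMIs) in that labelled fat, against 1.03 CPM (0.281 to 2.64; 4 UMIs) in lung P2 and 1.17 CPM (0.871 to 1.54; 51 UMIs) in fat P2. The intervals of the P2 libraries overlapped and lay below those of P1. Ramp3 was the only 1 of the 3 Ramp genes that was higher in the P1 library labelled lung than in that labelled fat with intervals apart. Ramp1, the co-receptor for calcitonin gene-related peptide, was low throughout, at 4.47 CPM (5 UMIs) and 3.23 CPM (21 UMIs) in the P1 libraries labelled lung and fat, against 9.28 CPM (36 UMIs) in lung P2 and 18.0 CPM (784 UMIs) in fat P2. The intervals of the P1 library labelled lung (1.45 to 10.4) and lung P2 (6.50 to 12.8) overlapped.

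Adm, the ligand, ran the other way. It stood at 27.7 CPM (18.8 to 39.3; 31 UMIs) in the P1 library labelled lung and 0.307 CPM (0.0372 to 1.11; 2 UMIs) in that labelled fat, against 104.4 CPM (94.5 to 115.1; 405 UMIs) in lung P2 and 88.2 CPM (85.4 to 91.0; 3845 UMIs) in fat P2. Both P2 libraries were above both P1 libraries. In the P1 library labelled lung, where Adm had 31 UMIs, fibroblast markers were present too: the 12 genes of the fibroblast list summed to 1133.5 CPM there and to 66.7 CPM in the P1 library labelled fat, against 13166.4 CPM in lung P2 and 45565.8 CPM in fat P2. Whether these had a part in the Adm value was not tested.

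Adrb1 was a gene of the P1 library labelled fat. It had no UMI in the P1 library labelled lung (3 counts allow up to 2.68 CPM) and 323.6 CPM (310 to 337.8; 2107 UMIs) in that labelled fat, against 11.6 CPM (8.46 to 15.5; 45 UMIs) in lung P2 and 0.344 CPM (0.193 to 0.567; 15 UMIs) in fat P2. Lung P2 held Adra1a, the alpha-1A receptor, at 241.2 CPM, where the libraries labelled lung P1 and fat P1 and fat P2 had 0, 0.922 and 0.183 CPM.

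**Figure D1:**
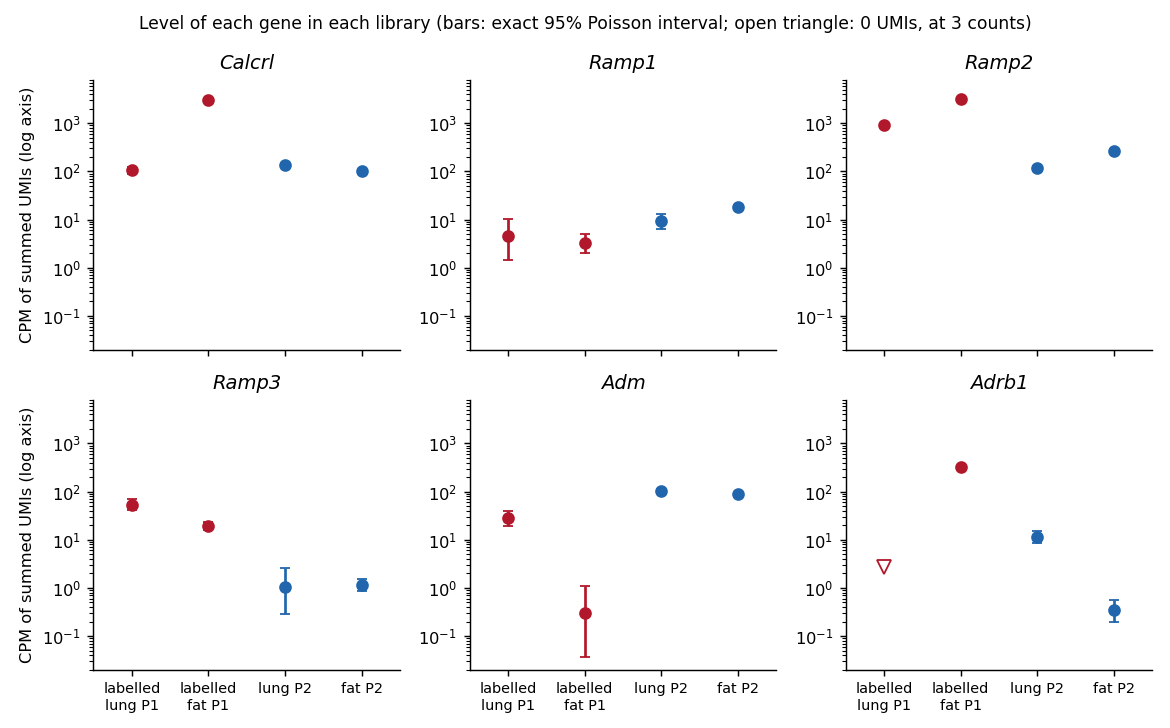
CPM of summed UMIs (log axis) of each gene in the P1 library labelled lung, the P1 library labelled fat, lung P2 and fat P2, with exact 95% Poisson intervals as bars and 0 UMIs drawn as an open triangle at 3 counts. Calcrl and Adrb1 stand out in 1 library, labelled fat P1, at 3074.5 and 323.6 CPM, Ramp2 and Ramp3 are higher in both P1 libraries, and Adm is higher in both P2 libraries.

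For P1 against P2, a gene was counted as higher or lower when its CPM, with 10 CPM added to each side, differed at least 4-fold and 1 of the libraries had at least 50 CPM. For labelled fat, 3 of the 4 members that reached 50 CPM were higher in P1 (Calcrl, Ramp2 and Adrb1) beside 12.4% of all 4727 genes at that level, and 1 was lower (Adm) beside 10.1%. With no CPM added, Calcrl was 29.6-fold and Ramp2 12.2-fold higher in P1, which is 4.89 (interval 4.84 to 4.93) and 3.60 (3.57 to 3.64) on the log2 scale. Adrb1 was higher by 9.88 (9.15 to 10.7) and Adm lower, at -8.17 (-11.2 to -6.31), both on the log2 scale and with 15 UMIs in P2 and 2 UMIs in P1 on the low side. With 50 CPM added to each side instead of 10, Adm was at -1.46 and no longer counted as lower. Ramp3 and Ramp1 did not reach 50 CPM in either library. With TMM scaling, 501 genes were higher and 610 lower in P1 for labelled fat, where library sums gave 586 and 479. Since the members were chosen on these values, nothing is read from the counts.

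For labelled lung, 2 of the 4 members that reached 50 CPM were higher in P1 (Ramp2 and Ramp3) beside 8.45% of 4791 genes, and 0 were lower beside 11.8%. With no CPM added, Ramp2 was 8.01-fold higher in P1 (log2 3.00, 2.84 to 3.16) and Ramp3 52.0-fold higher (log2 5.70, 4.27 to 7.62, with 4 UMIs in P2). Calcrl was at a log2 ratio of -0.40 (-0.70 to -0.11), and Adm at -1.91 (-2.49 to -1.39). Adrb1 was at least 4.33-fold lower in P1, set against 3 counts there. With 50 CPM added instead of 10, Ramp3 was at a log2 ratio of 1.02 and no longer counted. Ramp2 and Ramp3 were thus higher in P1 with 10 CPM added, while Calcrl and Ramp1 were not.

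The choice of P1 library decides these values. With the P1 libraries exchanged between the tissues and 10 CPM added, Calcrl was at a log2 ratio of 4.37 over lung P2 and 0.02 over fat P2, Ramp2 at 4.67 and 1.79, Adm at -3.47 and -1.38, and Adrb1 at 3.95 and -0.05. As labelled the values were -0.37 and 4.76 for Calcrl, 2.90 and 3.55 for Ramp2, -1.60 and -3.25 for Adm, and -1.11 and 5.01 for Adrb1. Ramp2 and Ramp3 were above 0 and Adm below 0 with either P1 library over either P2 library. Calcrl and Adrb1 passed 4-fold with the P1 library labelled fat over either P2 library and with the other P1 library over neither.

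**Figure D2:**
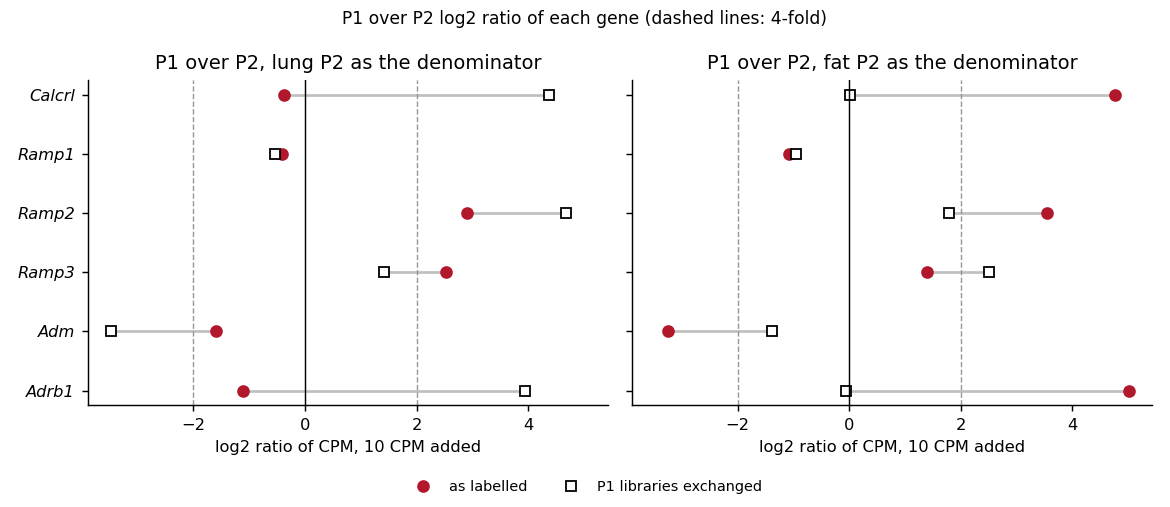
Log2 ratio of CPM (10 CPM added), P1 over lung P2 in the left panel and over fat P2 in the right, as labelled (filled circles) and with the P1 libraries exchanged (open squares); dashed lines mark 4-fold. Ramp2 lies between 1.79 and 4.67 in all 4 pairings, while Calcrl lies at 4.37 and 4.76 with the P1 library labelled fat and at -0.37 and 0.02 with that labelled lung.

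Between the P1 libraries, 0 of the 4 members that reached 50 CPM were higher in that labelled lung beside 5.28% of 4605 genes, and 2 were lower (Calcrl and Adrb1) beside 5.71%. Calcrl was 29.15-fold lower there (log2 -4.87, -5.14 to -4.60), Adrb1 at least 120.7-fold lower, set against 3 counts, and Ramp2 3.43-fold lower (log2 -1.78, -1.87 to -1.69). Between the P2 libraries, 0 of the 3 members that reached 50 CPM were higher in lung beside 8.24% of 4323 genes and 0 lower beside 4.79%. Ramp2 was at a log2 ratio of -1.18 (-1.31 to -1.04) and Adm at 0.24 (0.09 to 0.39), lung over fat. With each cell's CPM averaged instead and 10 CPM added, Ramp2 was at -2.22 and counted as lower. With TMM scaling 285 genes were higher and 307 lower in lung P2, where library sums gave 356 and 207. The fat P2 values entered the contrast with P1 as well, so these contrasts share libraries.

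To compare shares of cells, each cell was thinned to 1000 UMIs. Calcrl had a UMI in 12.1% of cells of the P1 library labelled lung (79 of 652) and 88.0% of that labelled fat (1714 of 1948), against 3.76% in lung P2 (54 of 1436) and 10.1% in fat P2 (800 of 7898); the unthinned shares were 17.0%, 96.4%, 6.27% and 36.0%. Ramp2 had one in 63.5% and 89.6% of cells of the P1 libraries labelled lung and fat, against 2.72% in lung P2 and 22.6% in fat P2; unthinned, 79.0%, 96.7%, 5.15% and 64.6%. Each RNA was thus seen in most cells of the P1 library labelled fat at equal depth. In that library, Calcrl was seen in 4 of 38 epithelial-like cells (10.5%, 2.94 to 24.8, at a median of 5099 UMIs). The share was 91.3% of 1643 endothelial-like cells (median 2801 UMIs). Whether free RNA or doublets had a part in the epithelial-like value was not tested.

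Adrb1 had a UMI in 0 of 652 thinned cells of the P1 library labelled lung, which allows up to 0.460% (3 cells), and in 28.4% (26.4 to 30.5) of the P1 library labelled fat, against 0.418% (6 cells) in lung P2 and 0.0633% (5 cells) in fat P2. In the P1 library labelled fat the unthinned share was 59.3%, and epithelial-like cells had 5.26% (2 of 38) thinned. Adm was seen in 2.15% of thinned cells of the P1 library labelled lung and in 0 of 1948 of that labelled fat, which allows up to 0.154% (3 cells), against 8.70% (7.30 to 10.3) in lung P2 and 6.74% (6.19 to 7.31) in fat P2; unthinned, 4.601%, 0.0513%, 17.1% and 21.0%. Ligand RNA was thus found in a minority of cells wherever it was found. Ramp3 had one in 5.67% and 1.59% of thinned cells of the P1 libraries labelled lung and fat, against 0.0696% in lung P2 and 0.241% in fat P2. Ramp1 stayed at or under 1.66% of thinned cells in each library.

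Receptor and co-receptor were seen in the same cells mainly in the P1 library labelled fat. Thinned cells with both Calcrl and Ramp2 numbered 51 of 652 in the P1 library labelled lung and 1574 of 1948 in that labelled fat (80.8%), against 19 of 1436 in lung P2 and 187 of 7898 in fat P2. In the P1 library labelled lung, Ramp2 was in 64.6% of cells with Calcrl (53.0 to 75.0) and 63.4% of cells without it. The corresponding shares were 91.8% and 73.5% in the P1 library labelled fat, where the endothelial-like cells alone had 91.9% and 90.9%. In lung P2 they were 35.2% (22.7 to 49.4) and 1.45%, and in fat P2 23.4% and 22.5%. Of the 19 cells of lung P2 with both, 17 were among its 34 endothelial-like cells, where the shares were 81.0% (58.1 to 94.6) and 30.8% (9.09 to 61.4). In its fibroblast-like cells they were 6.67% (0.818 to 22.1) and 1.30%. In the P1 library labelled lung, in fat P2, in the fibroblast-like cells of lung P2 and in the endothelial-like cells of the P1 library labelled fat, the interval for cells with Calcrl held the share of cells without it. Cells that carried Calcrl, a Ramp gene and Adm numbered 0 in each of the libraries labelled lung P1 and fat P1, and 0 in lung P2 and 4 of 7898 in fat P2. Of the thinned cells with Adm, 121 of 125 in lung P2 (96.8%) and 393 of 532 in fat P2 (73.9%) had neither Calcrl nor a Ramp gene, where 94.2% of all cells in lung P2 and 68.2% in fat P2 had neither.

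**Figure D3:**
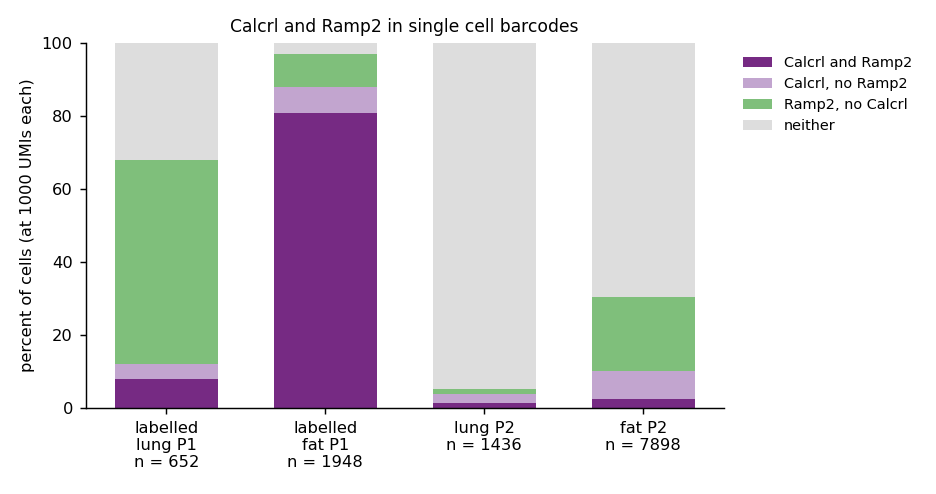
Percent of cells, each thinned to 1000 UMIs, with Calcrl and Ramp2, Calcrl alone, Ramp2 alone or neither, in the P1 library labelled lung, the P1 library labelled fat, lung P2 and fat P2. In the P1 library labelled fat 80.8% of cells carry both, in that labelled lung most cells with either carry Ramp2 alone, and in lung P2 most cells carry neither.

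Within the P1 library labelled fat, clusters differed in the balance of receptor and co-receptor. The genes of the adrenomedullin and adrenergic lists were left out of the genes used for clustering, and clusters are named by their leading genes. All 11 clusters other than the epithelial-like one held Calcrl at 1433.9 CPM or more and Ramp2 at 2276.7 CPM or more. Calcrl was highest in the 174 cells led by Slc6a6, Ntrk2 and Adamts1 (4226.4 CPM, 4034.7 to 4424.8) and next in the 270 cells led by Cxcr4, Lpl and Esm1 (4010.2 CPM, 3885.0 to 4138.5), whose interval overlapped it. Ramp2 was highest in the 425 aerocyte-like cells led by Fibin and Ednrb (4087.2 CPM, 3989.8 to 4186.3), a capillary type known from lung, and next in the 262 cells led by Wfdc1 and Dnah8 (3877.2 CPM, 3743.1 to 4014.9), whose interval also overlapped it. The cluster at the top depended on the Leiden resolution, here 1. At 1.5, Calcrl was highest in the cluster led by Prex1 (4530.7 CPM) and Ramp2 in that led by Telo2 (4523.2 CPM), and at 0.5, Calcrl was highest in that led by Cxcr4 (3774.6 CPM) and Ramp2 in that led by Fibin (4087.2 CPM). At each resolution the cluster highest for Calcrl was led by other genes than that highest for Ramp2.

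The UMIs of Calcrl per UMI of Ramp2 differed between clusters. They were 1.65 (1.53 to 1.78) in the cluster led by Slc6a6, 1.42 (1.32 to 1.51) in the 347 cells led by Pf4 and Clec1b, and 1.16 (1.11 to 1.22) in the one led by Cxcr4. They were 0.858 (0.828 to 0.889) in aerocyte-like cells, 0.685 (0.648 to 0.724) in the one led by Wfdc1 and 0.658 (0.570 to 0.759) in the 39 venous-like cells led by Slc6a2. The lowest value, 0.477 (0.436 to 0.522), was that of 126 cells led by Sftpa1, Sftpc and Ccl21a, an unnamed cluster with epithelial and lymphatic genes at its head. There Ramp2 stood at 3004.0 CPM and Calcrl at 1433.9 CPM. The intervals of the clusters at the top and at the bottom of this range did not overlap.

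Adrb1 was spread over the endothelial clusters of the P1 library labelled fat. It was lowest in the 40 cells led by Atp13a3, Olfm2 and Plac8, with the arterial gene Gja5 among their top genes (109.8 CPM, 64.0 to 175.8), and in the venous-like cells (197.1 CPM, 138.7 to 271.6). The clusters led by Fibin, Cxcr4, Pf4 and Slc6a6 had 316.9, 333.2, 408.8 and 375 CPM. The highest value was in 52 cells led by the interferon-induced genes Igtp and Iigp1 (422.1 CPM, 329.7 to 532.5), whose interval overlapped those of several others. Epithelial-like cells had 64.1 CPM (36.6 to 104.1). Ramp1 was the exception among the members: 15 of its 21 UMIs lay in the 38 epithelial-like cells led by Ager and Cldn18 (60.1 CPM, 33.6 to 99.1).

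**Figure D4:**
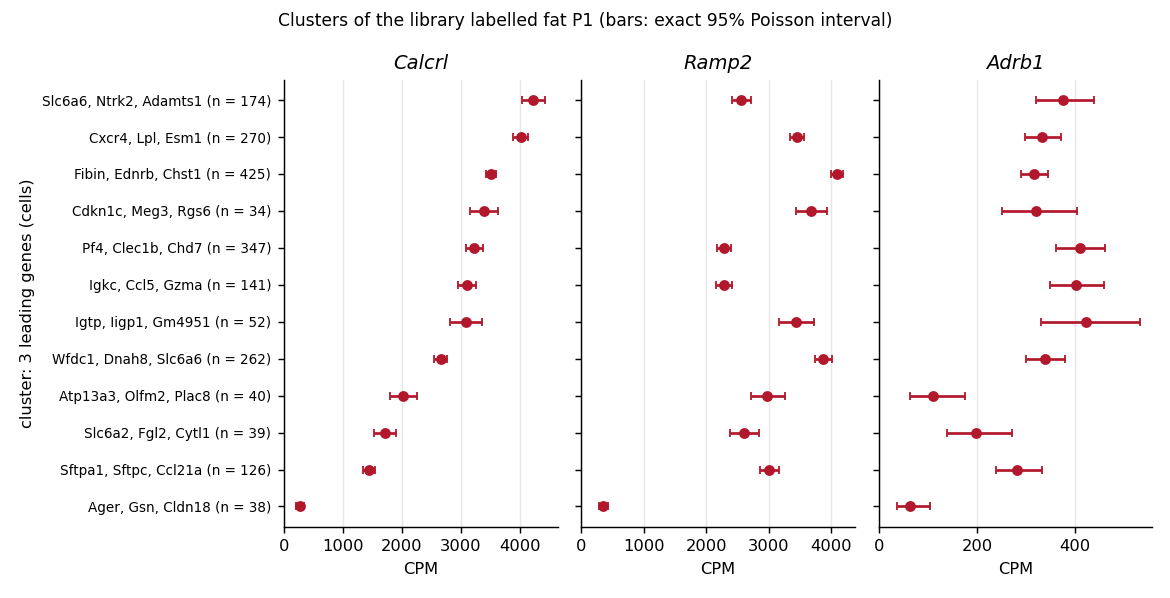
CPM of Calcrl, Ramp2 and Adrb1 in the 12 clusters of the P1 library labelled fat, ordered by Calcrl, with exact 95% Poisson intervals; labels give the leading genes and the number of cells. Calcrl falls away in the clusters led by Slc6a2 and Sftpa1 while Ramp2 does not to the same degree, and the epithelial-like cluster led by Ager is low for all 3 genes.

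In the P1 library labelled lung, differences between clusters were small beside counting error. Over its 10 clusters of at least 30 barcodes, Ramp2 ranged over 824.4 (596.6 to 1110.4) to 1131.2 CPM (940.9 to 1348.8) and Calcrl over 38.2 (7.88 to 111.7) to 158.1 CPM (75.8 to 290.7). The intervals of the lowest and the highest cluster overlapped for both genes. Adrb1 was at 0 in all of them. Its variance over barcodes was 0.956 times the binomial for Calcrl and 0.936 times for Ramp2, against 4.39 and 3.66 times in the P1 library labelled fat.

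In lung P2 the receptor genes belonged to few cells. The 34 endothelial-like cells led by Ptprb, Hpgd and Cldn5, 2.37% of the cells, held 471 of the 539 UMIs of Calcrl (1796.2 CPM, 1637.6 to 1966.0), 391 of the 454 of Ramp2 (1491.1 CPM) and 39 of the 45 of Adrb1 (148.7 CPM, 105.8 to 203.3). The 1184 fibroblast-like cells had Calcrl at 19.9 CPM (15.2 to 25.4), Ramp2 at 19.5 CPM (14.98 to 25.04) and Adrb1 at 1.26 CPM. The P2 gate was CD31 negative and PDGFRa positive, and these 34 cells had Pecam1, the CD31 gene, at 1277.6 CPM and Pdgfra at 244.1 CPM. In fibroblast-like cells alone, Calcrl was seen in 2.53% of thinned cells (30 of 1184, median 2274.5 UMIs). It was seen in 0 of the 34 mural-like cells led by Acta2 and Myh11 (3 cells allow up to 8.82%, median 1941 UMIs). With P1 and P2 limited to their endothelial-like and fibroblast-like cells, the log2 ratio of Calcrl for labelled lung was 1.86 instead of -0.37, and that of Ramp2 5.04 instead of 2.90. For lung over fat in P2 the same limit gave -1.82 instead of 0.39 for Calcrl and -3.18 instead of -1.11 for Ramp2, the second then past 4-fold.

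The balance of genes in those endothelial-like cells of lung P2 can be set beside the P1 libraries. Their Calcrl per Ramp2 UMI was 1.21 (1.05 to 1.38), where the P1 library labelled lung had 0.113 and that labelled fat 0.957. They had UMIs of both Adrb1 and Calcrl, as did the P1 library labelled fat, while that labelled lung had 118 UMIs of Calcrl and 0 of Adrb1. In fat P2, 17 endothelial-like cells led by Fabp4, Aqp1 and Ptprb had Calcrl at 168.3 CPM (101.3 to 262.9), Ramp2 at 425.2 CPM (313.5 to 563.8) and Adrb1 at 0 (3 counts allow up to 26.6 CPM). Their Dcn, a fibroblast gene, was at 7184.9 CPM.

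Ramp1 in lung P2 lay outside the endothelium. Of its 36 UMIs, 15 were in 34 mural-like cells led by Acta2 and Myh11 (178.8 CPM, 100.1 to 294.9) and 8 in 12 epithelial-like cells led by Sftpa1 (123.4 CPM, 53.3 to 243.1). These mural-like cells had 0 UMIs of Calcrl and of Ramp2 (3 counts allow up to 35.8 CPM). An unnamed cluster of 44 cells had the mural markers Cox4i2, Postn and Higd1b among its top 10 genes. It had 0 UMIs of Ramp1 and of Ramp2 and 2 of Calcrl (25.8 CPM), so the Ramp1 level was that of the Acta2 cluster, not of both. Ramp2 in lung P2 had, beside the endothelial-like cells, 37 UMIs in the 75 cells led by Scara5, Dcn and Ccl11 (122.2 CPM), where Calcrl had 2 UMIs.

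The ligand followed fibroblast clusters. In lung P2, 385 of the 405 Adm UMIs lay in fibroblast-like cells (121.3 CPM, 109.5 to 134) and 4 in endothelial-like cells (15.2 CPM, 4.16 to 39.1). The highest level was in the 212 cells led by Fat3, Slc13a4 and Bmper (164.8 CPM, 131.8 to 203.6), and the clusters led by Tnc, Apoc1 and Prodh had 155.3, 137.1 and 127.8 CPM. The 88 cells led by Adh7 and Hmcn2 had 31.6 CPM. Adm was thus found in most fibroblast-like clusters of lung P2, though not to the same level.

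In fat P2, Adm varied more between cells than the other members, with a variance 4.57 times the binomial beside a median of 1.172 over genes. The 358 cells led by Cilp, Thbs4 and Hmcn2, 4.53% of cells, held 14.8% of its UMIs (306.5 CPM, 281.8 to 332.7), and 19.0% of them (68 of 358) had a UMI after thinning. The 461 cells led by Fmo2, F3 and Inmt had 179.7 CPM (163.8 to 196.6), and the lowest cluster, led by Akr1c18 and Dmkn, 19.6 CPM. In the Cilp and Fmo2 clusters Ramp2 was at 161 and 158.4 CPM and Calcrl at 46.3 and 50.4 CPM, each below the level in the other cells of fat P2 (269 and 271.2 CPM for Ramp2, 106.6 and 107.5 CPM for Calcrl). In these 2 clusters Adm was high, and Ramp2 and Calcrl low, relative to the rest of the library. The 797 cells led by Igfbp2, Hc and Slit2 had Adm at 50.3 CPM, with Ramp2 at 193.1 CPM and Calcrl at 72.3 CPM. Low Ramp2 and Calcrl were thus not confined to clusters high in Adm.

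Ramp1 in fat P2 was highest in 4 clusters. The 534 cells led by Sult1e1, Il1r2 and C7 held 277 of its 784 UMIs (78.1 CPM, 69.2 to 87.8), and Ramp1 was itself among the top 10 genes of that cluster. The Y-linked gene Ddx3y was among them too. Whether this cluster set cells apart by sex or animal was not tested. The cluster led by Cilp had Ramp1 at 67.9 CPM (56.5 to 80.8), and the 103 cells led by Apod and Spp1 at 82.7 CPM (59.6 to 111.8). The 83 cells led by Wfdc18, Ltf and Csn3, genes of mammary epithelium, had Ramp1 at 126.9 CPM (95.6 to 165.2). All other clusters of at least 30 cells were at 19.3 CPM or less. Ramp2 was highest in the Apod cluster (435.3 CPM, 379.8 to 496.7).

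The low values of fat P2 can be set beside clusters led by genes of other cell types. Whether free RNA, or doublets, which were kept, had a part in those clusters was not tested. In clusters led by genes of immune (Cd74, Ccl5), mammary epithelial (Wfdc18), muscle (Myf5, Pax7 among the top 10) and epithelial (Krt8, Krt18 among the top 10) cells, Dcn was at 7256.8, 7656.6, 5479.9 and 5179.4 CPM, where fibroblast-like clusters had 11315.6 CPM or more. Calcrl in these 4 clusters was at 86.7, 83.05, 65.7 and 31.4 CPM, beside 95.5 CPM (92.3 to 98.7) in all fibroblast-like cells. Its share of thinned cells in the Wfdc18 cluster was 12.0% (10 of 83, median 3550 UMIs), against 9.21% of fibroblast-like cells (median 5311 UMIs). Over all fibroblast-like cells Calcrl therefore did not stand above the level in the Wfdc18 cluster, though it did above that in the Krt8 cluster (31.4 CPM, 16.7 to 53.7). Single fibroblast-like clusters reached higher values, with 137.6 CPM (128.7 to 146.9) in the one led by Krtdap and 132 CPM (118.4 to 146.8) in the one led by Cxcl13. Of the 4 clusters the immune one had the widest interval (52.2 to 135.4), and it overlapped both. The fibroblast-like cells do not include the 1195 cells led by Akr1c14, Akr1c18 and Adgrg6, an unnamed cluster with Dcn at 12027.8 CPM. Calcrl there was at 157.2 CPM (976 UMIs), above the Krtdap and Cxcl13 clusters and above the upper end of the immune interval. Ramp2 was at 132.4, 136.1, 136.4 and 106.2 CPM in the 4 clusters, beside 258.6 CPM (253.3 to 263.9) in fibroblast-like cells. For Adm the values were 50.2, 25.4, 55.6 and 45.9 CPM, beside 92.2 CPM in fibroblast-like cells and 306.5 CPM in the Cilp cluster.

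**Figure D5:**
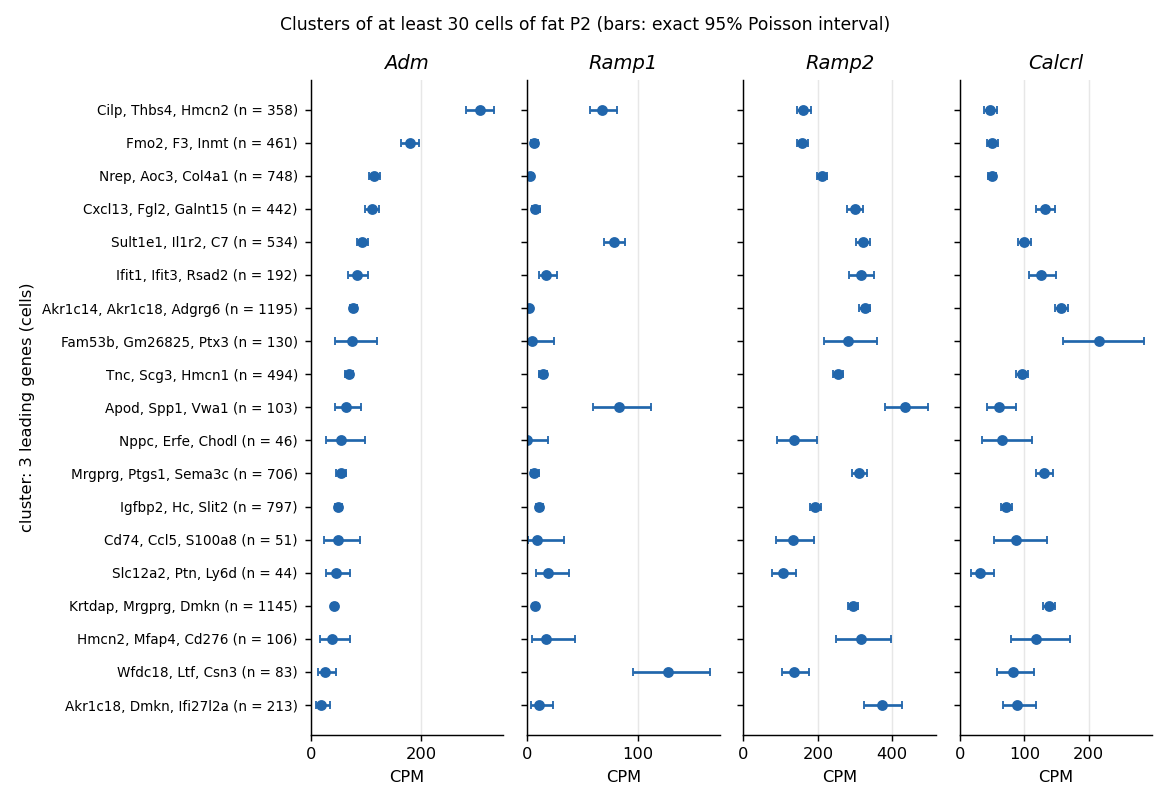
CPM of Adm, Ramp1, Ramp2 and Calcrl in the clusters of at least 30 cells of fat P2, ordered by Adm, with exact 95% Poisson intervals; labels give the leading genes and the number of cells. Adm peaks in the Cilp and Fmo2 clusters (306.5 and 179.7 CPM), Ramp1 in the Wfdc18, Apod, Sult1e1 and Cilp clusters, and Calcrl lies at or below 157.2 CPM in all but the cluster led by Fam53b, which has 215.8 CPM. The Fam53b cluster is of low depth, with 49 Calcrl UMIs and a median of 1498 UMIs per cell, beside 5151.5 in the library.

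Genes whose level ran most like a member's were sought over the 52 clusters of at least 30 cells in the 4 libraries, by Pearson's r of log2(CPM + 10) among 8824 genes. Clusters of 1 library share its depth and free RNA, so these are descriptions. For Calcrl they were Bmp6, Slco2a1 and Hpgd (r = 0.93) and Scn3b and Itga2 (0.92). For Adrb1 they were Scn3b (0.98), Rasgef1a (0.97), Hpgd and Ifi213 (0.96) and Pllp (0.95). Scn3b and Hpgd stand in both lists; Hpgd encodes a prostaglandin-degrading enzyme and was at 2.68 and 2498.8 CPM in the P1 libraries labelled lung and fat, against 141.2 CPM in lung P2 and 18.2 CPM in fat P2. For Ramp2 they were H2-D1 (0.95), Ece1 (0.94), H2-K1 and Fkbp1a (0.93) and Tek (0.92), the gene of the Tie2 receptor used in the sort. Ramp3 ran with Emcn, Pcp4l1, Dok4 and Scarb1 (0.86) and Grrp1 (0.85). Adm ran with the extracellular matrix gene Pcolce (0.89), Dpep1 (0.87), and Cd302, Serping1 and Gsn (0.86). No gene passed 0.66 for Ramp1, where Adcy5 came first. Among the members, r was 0.90 for Calcrl and Adrb1, 0.83 for Calcrl and Ramp2, and -0.74 for Calcrl and Adm.

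Within the P1 library labelled fat, over its 12 clusters and 6198 genes, Calcrl ran most like Podxl, Adgre5 and Gata2 (0.98), Ramp2 like Cracr2b, Ly6a and Bvht (0.97) and Adrb1 like Ubn1 and Pitpnc1 (0.98). The epithelial-like cluster was at the low end for all 3 members and weighs on each r.

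Of the 10 other genes of the calcitonin family and its processing, 4 reached 50 CPM in either P1 against P2 contrast. Pam, the enzyme that amidates adrenomedullin, was at like levels, 435.3 and 299.5 CPM in the P1 libraries labelled lung and fat, against 524 CPM in lung P2 and 262.3 CPM in fat P2. Mme, a peptidase that degrades such peptides, was lower in P1 for both tissues, at 5.36 and 2.46 CPM, against 265.2 CPM in lung P2 and 65.8 CPM in fat P2. Ackr3, a scavenging receptor for chemokines and adrenomedullin, was at 134.1 CPM in the P1 library labelled lung against 24.5 CPM in lung P2, and at 69.1 CPM in that labelled fat against 603.5 CPM in fat P2. In that list 1 of 4 was higher and 2 lower for labelled lung (median log2 ratio -2.07, -0.12 over all genes) and 0 higher and 3 lower for labelled fat (-2.76, 0.38 over all genes).

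Of the genes downstream, 8 of 16 listed G protein and adenylyl cyclase genes reached 50 CPM for labelled lung, with 1 higher and 1 lower (median log2 ratio 0.88, -0.12 over all genes), and 7 of 16 for labelled fat, with 1 higher and 0 lower (1.11, 0.38 over all genes). Over all genes at that level, 8.45% were higher and 11.8% lower for labelled lung, and 12.4% higher and 10.1% lower for labelled fat, so the counts of this list lay near the background. Adcy4, an adenylyl cyclase, was the higher one in both: 234.2 and 271.1 CPM in the P1 libraries labelled lung and fat, against 14.9 CPM in lung P2 and 2.94 CPM in fat P2. Gnas, the stimulatory G protein subunit, was at 2082.0 and 776.9 CPM, against 935.6 and 1375.5 CPM, under 4-fold in both. Of 16 cAMP effector genes, Rapgef3, an exchange factor for Rap that cAMP activates, was higher in P1 for both, at 157.3 and 160.4 CPM, against 18.6 and 7.48 CPM. Adcy4 and Rapgef3 were at like levels in both P1 libraries, where Calcrl and Adrb1 were not.

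Pde3a, a cAMP phosphodiesterase, differed past 4-fold between the P1 libraries, with 8.94 CPM in that labelled lung and 316.6 CPM in that labelled fat, against 67.8 CPM in lung P2 and 64.6 CPM in fat P2. Arrb1, a beta-arrestin that uncouples receptors, was at 70.6 and 255.3 CPM in the P1 libraries, a log2 ratio of -1.72 that stayed under 4-fold, against 153.1 CPM in lung P2 and 17.5 CPM in fat P2. Of 14 cAMP breakdown genes, 2 reached 50 CPM for labelled lung (0 higher, 1 lower, median log2 ratio -0.73) and 3 for labelled fat (2 higher, 0 lower, median 2.13). Of 11 desensitisation genes, 6 reached it for labelled lung (1 higher, 1 lower, median -0.97) and 3 for labelled fat (1 higher, 0 lower, median 0.90). Of 13 adrenergic and amine genes, 4 reached it in each, with 0 higher and 3 lower for labelled lung (median -2.79) and 3 higher and 0 lower for labelled fat (median 2.36). All genes at that level had 8.45% higher and 11.8% lower with a median of -0.12 for labelled lung, and 12.4% higher and 10.1% lower with a median of 0.38 for labelled fat. With 2 to 6 genes counted in a list, nothing particular is read from these counts.

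Adm is known as a hypoxia-induced gene, and 14 genes of that response were listed. For labelled fat, where Adm was lower in P1, Vegfa and Hilpda were higher, at 484.3 and 487.2 CPM in P1 against 95.9 and 15.9 CPM in P2, with 2 of 5 genes higher and 0 lower beside 12.4% and 10.1% of all genes. The median log2 ratio of the 5 was 0.11, below the 0.38 over all genes, and Ldha was at -0.91. Hilpda was also among the general capillary markers used here. For labelled lung, with a median of 1.31 against -0.12 over all genes, 2 of 6 were higher beside 8.45% of all genes (Ndrg1 and Ddit4) and 1 lower beside 11.8% (Vegfa, 17.0 CPM in P1 against 306.2 CPM in P2).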

How the data were processed

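Droplet-based single-cell RNA libraries were made with a 10x Genomics 3' kit of chemistry v3.1, per the labels' protocols; Cell Ranger 3.1.0 and mm10 stand in the submitters' processing notes. Values deposited by the authors are raw counts (UMIs of each gene in each barcode), limited to called cells and not normalized. Of 31053 gene entries, symbols given to several IDs were summed, which left 31017. The libraries held 1305 barcodes with 1510443 UMIs (labelled lung P1), 3783 with 8866500 (labelled fat P1), 2860 with 5348607 (lung P2) and 9025 with 44711105 (fat P2).

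Cells with at least 1000 UMIs, 500 genes and at most 10% mitochondrial UMIs were kept; Scrublet scores were computed and doublets were kept in the main values, with the highest-scoring 3, 30, 16 and 499 barcodes, in the same order, left out as an alternative. Scrublet's automatic threshold marked 3 of 7898 barcodes in fat P2 and was not used. Clusters were made in each library with scanpy 1.11.5 from 2000 variable genes (without the members and the listed pathway genes), 30 principal components and 15 neighbours, at Leiden resolution 1. A cluster was named from marker lists when at least 3 markers reached 100 CPM and its 10 leading genes did not hold more markers of another list. A cluster with median UMIs far below its library's, and no marker of its class among those 10 genes, was also left unnamed.

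CPM were summed UMIs scaled to the library sum, with exact 95% Poisson intervals; intervals of shares are exact Clopper-Pearson ones, and both cover counting error only. Where a count was 0, the limit given is 3 counts. Differences are log2 ratios with 10 CPM added, counted past 4-fold among genes at 50 CPM or more in 1 library. No test was possible with 1 library in each group. The steps were tested on simulated data. TMM factors came from edgeR 4.0.16. The members and the gene lists were chosen with earlier results of these data known. Genes named beside the members are, in each pathway list, the 4 measured genes with the highest CPM and those past 4-fold in both P1 over P2 comparisons, the 5 genes most like each member over clusters, and checks of the sort and tissue; Ddit4, Hpgd and cluster-leading genes were named after their values were seen. Some genes that this rule names enter the list counts, but their values are not reported here. Gene coordinates are from GENCODE vM21, matched by gene ID for all 6 members, and promoters, found for 5 of 6, from RefSeq on GRCm38.p6.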

Additional observations from a re-analysis of the deposited data

Results flagged for a closer look

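The P1 over P2 ratio of 2 members, from summed UMIs of all kept cells, had opposite signs in the tissues as labelled. For Calcrl the log2 ratio was -0.37 for labelled lung and 4.76 for labelled fat, and for Adrb1 it was -1.11 for labelled lung and 5.01 for labelled fat. For labelled lung, limiting P1 to endothelial-like and P2 to fibroblast-like cells gave 1.86 for Calcrl and -0.17 for Adrb1. Averaging each cell's CPM gave 0.74 and -0.58. Adrb1 was under 50 CPM in both libraries labelled lung. Each tissue has 1 P1 and 1 P2 library, so the difference between tissues was not tested. The 2 P1 libraries carry tissue markers that go against their labels, and with them exchanged the ratios were 4.37 for lung and 0.02 for fat for Calcrl, and 3.95 for lung and -0.05 for fat for Adrb1.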

How the results depend on the processing

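No paired analysis was possible because each group had 1 library. With 50 CPM added instead of 10, the genes past 4-fold numbered 358 for labelled lung P1 over P2 (969 with 10 CPM), 477 for labelled fat P1 over P2 (1065), 223 for lung over fat in P2 (563) and 180 for labelled lung over labelled fat in P1 (506). All other settings kept these 4 counts within 1.5 times. TMM scaling moved the median log2 ratio of all genes by -0.33 for labelled fat and by -0.32 for lung over fat in P2, so member ratios there stand relative to that shift. With the P1 libraries exchanged, the ratio of Adrb1 over fat P2 was -0.05 instead of 5.01. Of the members' ratios under alternatives, calls changed in 5 of 60 for labelled lung, 6 of 60 for labelled fat, 2 of 54 for lung over fat in P2 and 0 of 54 for P1, and signs in 5, 1, 5 and 1. Of these calls, 50 CPM added ended those of Ramp3 for labelled lung (1.02) and Adm for labelled fat (-1.46); the other changes for P1 over P2 came with the P1 libraries exchanged. Averaging each cell's CPM gave Calcrl 0.74 for labelled lung and -0.70 for lung over fat in P2. Summed UMIs gave -0.37 and 0.39. Averaging also put Ramp2 at -2.22 for lung over fat in P2, past 4-fold, where summed UMIs gave -1.11. The cause was not tested. The P1 library labelled lung, with 1118642 kept UMIs, limits Ramp1, Adm and Adrb1 there.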
